A study of Mus musculus with 6 samples.

Results

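Cells that carried skeletal muscle transcripts in digits-in-a-dish (DID) cultures at Day 7 and Day 10 were examined by single-cell RNA sequencing (scRNAseq). They are called muscle cells below because they met the thresholds that follow, and some of them also held many cartilage transcripts. A cell was kept as a muscle cell when 6 muscle genes, the giant sarcomere protein Ttn, the troponins Tnnt1 and Tnnc2, the myogenic regulator Myog and the myosin light chains Mylpf and Myl1, together held at least 8 unique molecular identifiers (UMIs, 1 per captured transcript) and at least 0.5% of that cell's UMIs. Of 43140 cells at Day 7 and Day 10 that passed the quality limits (at least 1000 UMIs, at most 7500 genes and at most 25% mitochondrial UMIs), 136 met these thresholds. The levels of the 6 genes chose the cells, so those levels are given as a description and were not tested. DID cultures were seeded at high density with distal forelimb mesenchyme dissected from E11.5 embryos of CD-1 mice, an outbred strain. The cells came from wildtype embryos, no treatment separated the groups, and the groups differed in the time in culture, which was 2, 7 or 10 days. For each day, replicates A and B were independent cultures, each read as 1 library with the 10x Genomics 3′ kit. Because the limb buds of several embryos were combined, a library stood for a culture and not for an embryo, and the 2 replicates of a day measured the spread between cultures.

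Limb muscle does not arise from the limb mesenchyme itself. Its progenitors migrate in from the somites, switch on the MyoD family of transcription factors, leave the cell cycle and fuse into multinucleated fibres. Structural genes follow, with embryonic and cardiac isoforms of actin, myosin and troponin preceding the adult ones, and fibres then build the calcium release machinery and the acetylcholine receptors through which nerves drive them.

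Muscle cells were rare and were not spread evenly over the libraries. Day 7 A held 73 among 13485 cells (0.541%, exact 95% binomial interval 0.425 to 0.68%) and Day 7 B held 47 among 12202 (0.385%, 0.283 to 0.512%). Day 10 B held 15 among 8752 (0.171%, 0.096 to 0.283%), whereas Day 10 A held 1 among 8701 (0.0115%, 2.91e-04 to 0.064%). The same thresholds found 232 cells in Day 2 A (2.43%) and 159 in Day 2 B (0.956%). With these thresholds every Day 2 library lay above every Day 7 library and every Day 7 library above every Day 10 library. Day 7 and Day 10 overlapped under stricter choices. At 16 UMIs and 1%, Day 10 B stood at 0.137% and Day 7 B at 0.131%, and among cells of at least 3000 UMIs they stood at 0.0838% and 0.0213%. The mean share was 1.69% ± 1.04 at Day 2, 0.463% ± 0.11 at Day 7 and 0.0914% ± 0.113 at Day 10 (SD, n = 2 libraries). The differences of -1.23 percentage points from Day 2 to Day 7 and of -0.372 from Day 7 to Day 10 each gave p = 0.333 in a two-sided exact permutation test, the smallest p that 2 libraries against 2 can give. The difference from Day 7 to Day 10 shrank to -0.0951 percentage points at 16 UMIs and 1% and to -0.0703 among cells of at least 3000 UMIs (exact permutation p = 0.667 for each). The intervals cover counting error only.

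**Figure D1:**
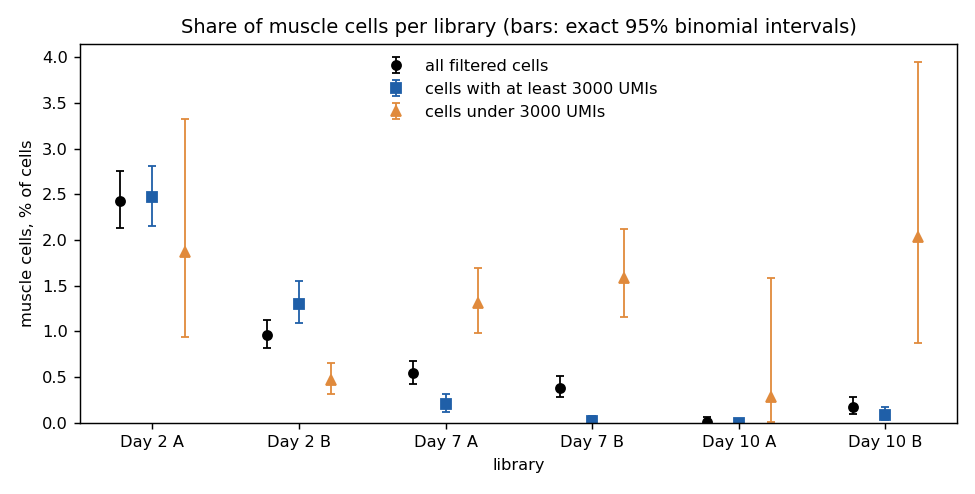
Share of muscle cells among all cells passing the quality limits, in percent, for each of the 6 libraries, with exact 95% binomial intervals as bars, for all cells, for cells of at least 3000 UMIs and for cells under 3000 UMIs. Among the deeper cells the share was 0.203% in Day 7 A and 0.0213% in Day 7 B, against 2.47% and 1.3% at Day 2, 0% in Day 10 A (0 of 8350 cells, interval up to 0.0442%) and 0.0838% in Day 10 B.

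The muscle cells fell into 2 depth ranges, and this split was made after the values had been seen. In Day 7 A, 54 had between 1012 and 2126 UMIs, 19 had between 13519 and 87274 UMIs, and none lay between these ranges. Day 7 B held 45 muscle cells under 3000 UMIs and 2 above, and Day 10 B held 8 and 7, while the single muscle cell of Day 10 A had 1488 UMIs, of which 109 (7.33%) came from the 6 genes. The deep cells, those of at least 3000 UMIs, carried 89.9% of the muscle cell UMIs in Day 7 A, 62.8% in Day 7 B and 93.8% in Day 10 B. Sums over muscle cells are therefore mostly values of 19, 2 and 7 cells. Barcodes under 3000 UMIs were 54 of the 73 in Day 7 A and 45 of the 47 in Day 7 B, so the Day 7 shares above rest mostly on them. Their variance over that of random draws from 1 shared profile had a median over genes of 1.09 in Day 7 A and 1.31 in Day 7 B. In other shallow cells it was 1.24 and 1.46, and in deep muscle cells of Day 7 A thinned to 1500 UMIs 1.3. The 10 chondrocyte genes used below summed to 11747 and 9109 CPM in them, and the 6 genes to 9152 and 12134 CPM. Whether each stood for an intact cell was not tested. Among cells under 3000 UMIs, the muscle share was not lower at Day 7 than at Day 2: it was 1.87% and 0.464% in the Day 2 libraries, 1.31% and 1.59% at Day 7 (a difference of 0.28 percentage points, exact permutation p = 1), and 0.285% and 2.03% at Day 10.

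**Figure D2:**
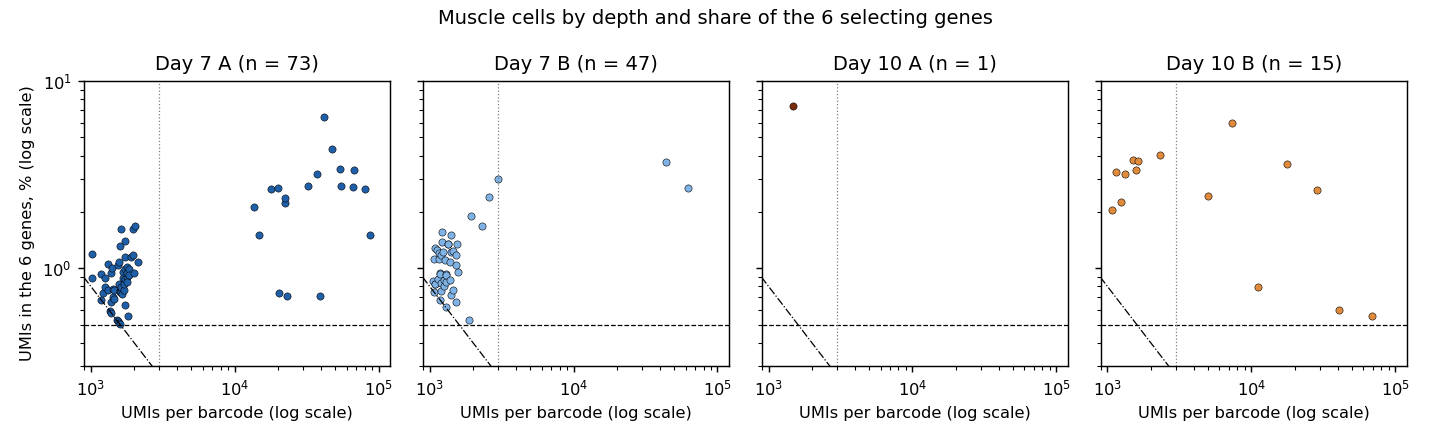
Each point is 1 muscle cell, placed by its UMIs (log scale) and by the percent of its UMIs in the 6 selecting genes (log scale), with 1 panel per library, a dashed line at 0.5%, a dash-dotted line at 8 UMIs of the 6 genes and a dotted line at 3000 UMIs. In Day 7 A the 54 shallow and the 19 deep muscle cells stand apart, with none between 2126 and 13519 UMIs.

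Cells with few UMIs of the 6 genes lay on both sides of the threshold. In Day 7 A, 3856 of the 4130 cells under 3000 UMIs had no UMI of the 6 genes, 199 had 1 UMI, 8 had 2, none had 3, 13 had 4 to 7 and 54 had at least 8. In Day 7 B, the same counts among 2829 cells were 2568, 157, 26, 11, 22 and 45. Cells just inside the threshold, with 8 or 9 UMIs, numbered 10 and 7, and cells just outside, with 6 or 7, numbered 10 and 8. In cells under 3000 UMIs that were not muscle cells, the 6 genes summed to 52.8 CPM (UMIs scaled to a library sum of 1000000) in Day 7 A and 86.4 in Day 7 B, and in deeper ones to 9.01 and 8.02. At the other end, 14 cells of Day 7 A and 5 cells each of Day 7 B and Day 10 B had at least 3000 UMIs and at least 8 UMIs of the 6 genes but stayed under 0.5%, as did 3 of Day 10 A.

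The 2 depth ranges also differed in composition. The RNA listed as Gm42418, which overlaps a ribosomal RNA unit, took 31.2% of UMIs in the shallow muscle cells of Day 7 A and 35.7% in those of Day 7 B. These shares lay near the 29.3% and 32.5% of shallow cells that were not muscle cells, and far above the 1.12% and 0.977% of deep muscle cells. The median mitochondrial share was 0.403% and 1.03% in shallow and 3.09% and 11.4% in deep muscle cells of Day 7. The part of these differences in any result on all muscle cells together was not tested, so results are given with the deep cells alone where that matters. No doublet caller was run, and the part of doublets was not tested. Between 20 and 48 barcodes were shared by any pair of Day 7 and Day 10 libraries, and no muscle cell was among them in both libraries of a pair.

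Titin differed between the shallow cells of the replicates, in muscle cells and in other cells alike. In Day 7 A, 4 of 54 shallow muscle cells had a Ttn UMI, and 32 of their 35 Ttn UMIs lay in 1 cell. In Day 7 B, 44 of 45 shallow muscle cells had Ttn, with 388 UMIs in all and a level of 6179 CPM. The 8 shallow cells of Day 10 B had no Ttn UMI, whereas Mylpf was found in all 8, with a median of 21055 CPM. Shallow cells of Day 7 A had Mylpf in 53 cells, Acta1, the skeletal actin, in 51, and Myh3, the embryonic myosin heavy chain, in 9. Those of Day 7 B had Mylpf in 39, Acta1 in 43 and Myh3 in 42. Ttn made up 4.47% of the 6-gene UMIs in shallow muscle cells of Day 7 A and 50.9% in those of Day 7 B. In shallow cells that were not muscle cells it made up 7.19% and 43.5%, at levels of 3.8 and 37.6 CPM. As Ttn is 1 of the 6 selecting genes, these values describe the cells and were not tested.

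At Day 7 each of the 9 muscle lists summed to a higher CPM in deep than in shallow muscle cells, with the thin filament list at 36795 against 13711 CPM in Day 7 A and at 40166 against 13567 CPM in Day 7 B. In Day 10 B 6 of the 9 lists had the reverse order, the thin filament list among them at 21197 CPM in deep and 38634 CPM in shallow cells. All 19 deep muscle cells of Day 7 A had UMIs of Ttn, Myog, Mylpf, Acta1, Actc1 and the fusion protein gene Mymk. Their Mylpf levels ran from 784 to 39412 CPM (median 9397), Acta1 from 261 to 17263 (median 7768), and Actc1, the cardiac actin used early in skeletal muscle, from 539 to 10224 (median 4678). Myod1, which commits cells to muscle, was found in 18 of the 19 with a median of 248 CPM. The 9 muscle gene lists used below took from 1.95% to 10.8% of the UMIs in these cells. The deep cell richest in the 6 genes had 41840 UMIs, of which 2686 (6.42%) came from the 6 genes, 1649 of them from Mylpf. The cells with 20160 and 22945 UMIs, at 0.734% and 0.71% in the 6 genes, had 38 and 67 UMIs of Myog but 53 and 18 of Mylpf, and 0 and 2 of Myh3. In these cells the cycle exit list took 1.34% and 1.53% of UMIs, the highest values among the 19. Of the 2 deep cells of Day 7 B, one had 31 Ttn and 905 Mylpf UMIs, and the other had 1080 Ttn, 255 Mylpf and 527 Myh3 UMIs with 20.4% mitochondrial UMIs.

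Day 10 B had 7 deep muscle cells that were not alike. Those of 17696 and 28477 UMIs had 3.6% and 2.62% of UMIs in the 6 genes, 45 and 46 Myog UMIs, 14 and 17 Myod1 UMIs, and 237 and 499 Acta1 UMIs. No other deep cell of Day 10 B had a Myod1 UMI. The cell of 7385 UMIs reached 5.94% with 277 Mylpf UMIs and none of Ttn, and the cell of 4964 UMIs had 2.42% with 19.6% mitochondrial UMIs. The remaining 3 cells lay under 1%. That of 11155 UMIs (0.798%) had 72 Ttn UMIs with 398 of the cartilage collagen Col2a1 and 18.7% mitochondrial UMIs. That of 40519 UMIs (0.595%) had no Ttn, 700 Col2a1 UMIs and 210 of the cartilage proteoglycan Snorc. That of 68789 UMIs (0.555%) had no Ttn and 258 UMIs of Spp1, which encodes the bone matrix protein osteopontin. The 3 cells under 1% held 120463 of the 190788 muscle cell UMIs of that library. In the sum over its muscle cells the 10 chondrocyte genes stood at 13481 CPM, above the 11804 CPM of its other cells.

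**Figure D3:**
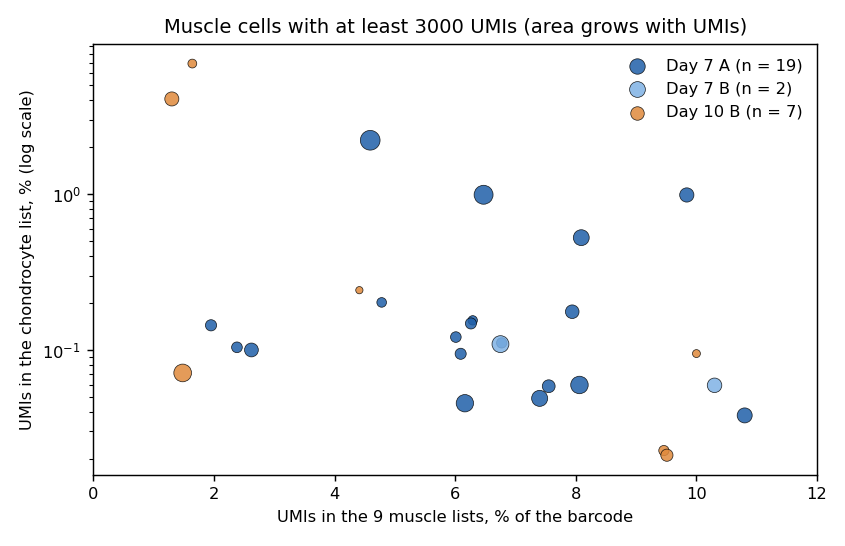
Muscle cells of at least 3000 UMIs at Day 7 and Day 10, placed by the percent of their UMIs in the 9 muscle lists and by the percent in the 10-gene chondrocyte list (log scale), with the area growing with the UMIs of the cell. The 19 cells of Day 7 A ran from 1.95% to 10.8% in the muscle lists, and 2 of the 7 cells of Day 10 B had 4.09% and 6.9% in the chondrocyte list.

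Outside the 6 genes, muscle cells differed from the other cells of their library in many more muscle genes. This comparison was not tested, since the cells had been chosen on muscle transcripts. With a ratio of at least 2 in each of Day 7 A, Day 7 B and Day 10 B as the criterion, 433 of 6481 genes were higher in muscle cells (6.68% of genes), and with at most 0.5 in each, 172 were lower (2.65%). Of the 164 genes in the 9 muscle lists, 82 were higher and 1, the differentiation inhibitor Id3, was lower. The 25 genes with the largest ratios, each at least 585 in its lowest library, included 20 from the muscle lists. They were the calcium channel subunit Cacng1, the calcium store and pump genes Casq2, Atp2a1 and Sln, the myosins Myh3 and Myl4, the actin and troponin genes Actc1, Tnnt2, Tnni1 and Tnnc1, the giant thin-filament ruler Neb, and the filament and Z-disc genes Lmod3, Actn2 and Tcap. Myoglobin (Mb), the fusion genes Mymk and Mymx, the acetylcholine receptor subunit Chrna1, Myod1 and Mybph completed the 20. The other 5 were Pnmt, an enzyme of adrenaline synthesis, Cd3g, a subunit of the T cell receptor complex, Art1, Tceal7 and Itgb1bp2.

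Myod1 stood at 267, 290 and 168 CPM in the muscle cells of Day 7 A, Day 7 B and Day 10 B, and at 0.16, 0.0684 and 0.0122 CPM in the other cells. Actc1 stood at 4459, 5090 and 3045 CPM against 1.78, 1.2 and 0.325. Pnmt stood at 1217, 1831 and 1169 CPM against 0.357, 0.186 and 0.0933, and Cd3g at 320, 907 and 304 against 0.0987, 0.0928 and 0.0284. Each of these genes lay above the other cells in all 3 libraries without overlap. Pax7, which marks muscle stem cells, had no UMI in the muscle cells of these libraries and none in their other cells, so its 0 does not set the muscle cells apart, while other cells of Day 2 held 1.29 and 1.37 CPM. A count of 0 allows up to 3.54 CPM in Day 7 A, 17.8 in Day 7 B and 15.7 in Day 10 B (3 UMIs of each total of muscle cell UMIs). Myf5 had 1.18 CPM in Day 7 A and none in Day 7 B or Day 10 B, within these limits. Cdh15, the cadherin of myoblasts, stood at 136, 290 and 68.1 CPM. The 18-gene progenitor list, of which Pax7, Myf5 and Cdh15 are members, summed to 267, 486 and 199 CPM in muscle cells and to 229, 224 and 247 CPM in other cells, with 4, 6 and 12 of its genes at 0 in muscle cells. Of 8 macrophage, 6 endothelial and 4 erythroid genes, 7, 5 and 4 had no UMI in the muscle cells of Day 7 A, and 7, 6 and 4 had none in Day 7 B or Day 10 B. In other cells the endothelial list summed to 1.03, 1.03 and 1.59 CPM and the erythroid list to 0.0094, 0 and 0.0284 CPM. These lie within the limits above, so the endothelial and erythroid counts of 0 do not set the muscle cells apart. The macrophage list summed to 13, 88.9 and 5.24 CPM in muscle cells and to 29.2, 40.4 and 132 CPM in other cells. The 7-gene Schwann cell and neural list was higher in muscle cells, at 130, 65.2 and 126 CPM against 24, 25.3 and 55.7, of which the neuregulin receptor gene Erbb3 held 42.5, 59.3 and 36.7 CPM and Stmn2 81.5, 5.93 and 83.9 CPM, while Sox10 had no UMI in muscle cells of these libraries.

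**Figure D4:**
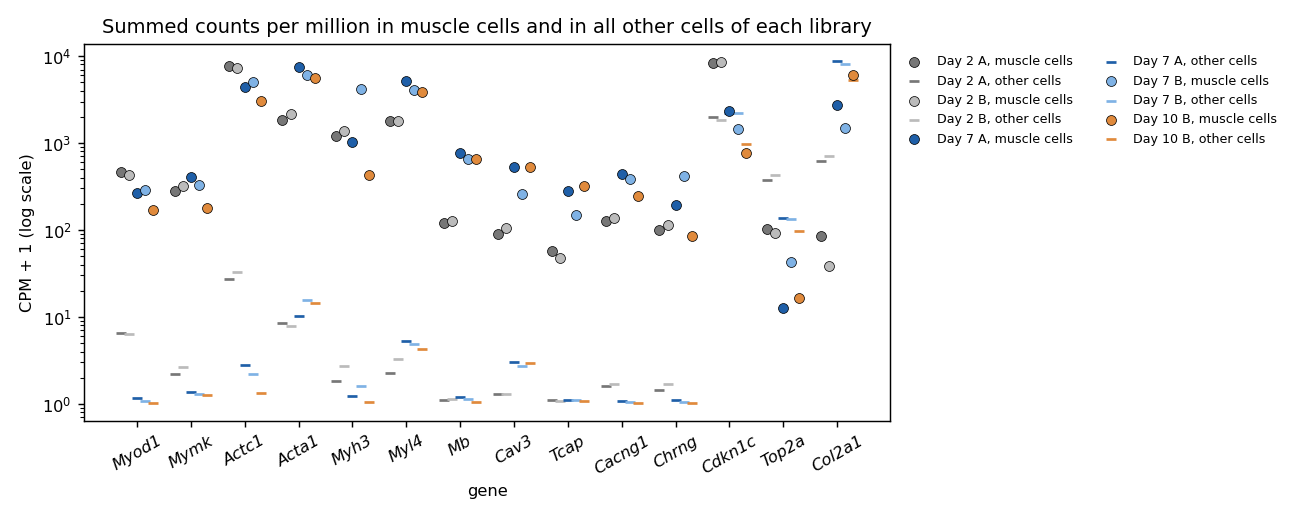
Summed levels in CPM plus 1 (log scale) of selected genes in the muscle cells (points) and in all other cells (dashes) of each library with at least 10 muscle cells. Myod1 ran from 168 to 465 CPM in muscle cells and did not exceed 0.16 CPM in other cells at Day 7 and Day 10.

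To ask how muscle cells changed in culture, the UMIs of the muscle cells of each library were summed and days were compared with edgeR's quasi-likelihood test with Benjamini-Hochberg adjustment over 8970 genes. The fit held Day 2 A, Day 2 B, Day 7 A, Day 7 B and Day 10 B. Day 10 A, with 1 muscle cell, was left out, so Day 10 was a lone library that is assumed to vary like the other days. Against Day 2, 610 genes rose at Day 7 (6.8% of genes tested) and 360 fell (4.01%), and with DESeq2 the split was 233 to 63. The balance turned without Day 7 A, when 486 rose and 633 fell, and without Day 7 B it was 803 to 648. Of the 9 muscle lists, 137 genes were tested, of which 41 rose and 3 fell (adjusted p under 0.05). The median log2 difference over the 137 was 0.73, against -0.03 over all genes tested. All 41 also rose with deep muscle cells alone, but these cells held most of the summed UMIs, so that fit is no separate check. In shallow cells alone 5 of 62 muscle list genes rose and 2 fell, against 55 and 25 of all 1560 genes. The list median there was 0.26, against 0.04 over all genes. Without the deep cells under 1%, 26 of the 41 rose, and with DESeq2 15 did. The count of 41 depended on both Day 2 libraries, and fell far lower in fits that left 1 library at Day 2. The count over all genes fell as well. Without Day 2 A, the share of muscle list genes that rose lay near that of all genes. The list median was 0.69 without Day 2 A and 0.91 without Day 2 B, against -0.01 over all genes in each. Muscle list genes that fell numbered 14 without Day 7 A and 8 without Day 7 B. Of the 41, 15 had under 50 UMIs at Day 7. Only 13 rose alike with deep cells alone, without the deep cells under 1% and with DESeq2. They were Cacna1s, Cacng1, Cav3, Chrng, Cox6a2, Dtna, Lmod2, Mb, Myom2, Nfix, Pdlim3, Tcap and Xirp1. DESeq2 called none of the 3 falls.

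**Figure D5:**
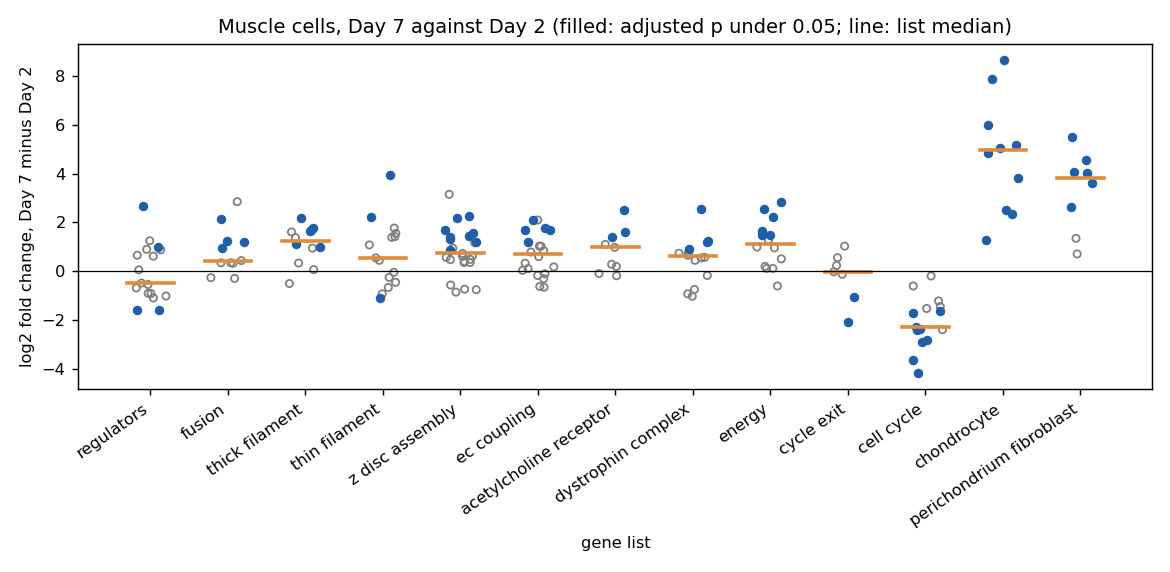
Log2 difference between Day 7 and Day 2 in muscle cells for every gene tested, by gene list, with filled points for an adjusted p under 0.05 and a line at the median of each list. The chondrocyte list lay highest, at a median of 4.95, and the cell cycle list lowest, at -2.28.

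Among the regulators, 2 of 17 rose and 2 fell. Over all genes tested 6.8% rose and 4.01% fell, the shares to hold beside the list counts here and below. Such small counts do not set the regulators apart from all genes. Myod1 stood at 465 and 431 CPM at Day 2 and at 267 and 290 CPM at Day 7, without overlap, for a log2 difference of -0.68 (SE 0.34, adjusted p = 0.233). Nfix, which drives the fetal phase of muscle development, rose from 11.2 and 8.15 to 53.1 and 88.9 CPM (log2 difference 2.67, SE 0.31, adjusted p = 1.79e-04), while the other cells held 204 and 208 CPM at Day 7. Tead4 also rose, by 1.01, a call lost without the deep cells under 1% and with DESeq2. Prox1 fell by 1.59 on the log2 scale (SE 0.34, adjusted p = 0.00958), from 50.1 and 57 to 16.5 and 17.8 CPM. Mef2c, a cofactor of the MyoD family, read 1342 and 1708 CPM at Day 2 and 1831 and 3976 at Day 7 (adjusted p = 0.319).

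Of 11 genes of fusion and membrane repair, 4 rose and none fell. The pair that drives fusion, Mymk and Mymx, gave log2 differences of 0.33 and -0.29 (adjusted p = 0.591 and 0.661), with Mymk between 281 and 407 CPM in the 4 libraries. Cav3, the muscle caveolin, rose from 88.7 and 103 CPM to 534 and 255 CPM (log2 difference 2.14, SE 0.41, adjusted p = 0.00525), and Day 10 B held 535 CPM. All Day 7 values lay above all Day 2 values. Dysf, which reseals torn membrane, Ehd1 and Jam2 rose by 1.22, 1.26 and 0.95. The calls for Dysf and Jam2 were lost without the deep cells under 1% and with DESeq2.

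In the thick filament list 6 of 12 genes rose and none fell. The embryonic heavy chain Myh3 read 1195 and 1379 CPM at Day 2, 1031 in Day 7 A and 4225 in Day 7 B, so the days overlapped (log2 difference 0.95, adjusted p = 0.345). Myh7, the slow heavy chain, rose from 49.1 and 77.4 to 93.3 and 409 CPM (1.69, SE 0.47, adjusted p = 0.0376), with 79.7% of its 69 UMIs in Day 7 B from 1 cell. The perinatal Myh8 rose by 0.98 (adjusted p = 0.0457), a call lost without the deep cells under 1% (0.55) and with DESeq2. The adult fast Myh4 rose by 2.2 (adjusted p = 0.0163), from 4.29 and 6.11 CPM to 24.8 and 11.9 CPM, on 21 and 2 UMIs. The M-band genes Myom2 and Myom3 and the light chain Myl6b rose by 1.79, 1.1 and 1.65. The Myom3 call was lost without the deep cells under 1% and with DESeq2.

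In the thin filament list, 2 of 15 genes rose and 1 fell, against 6.8% and 4.01% of all genes tested. These small counts do not set the list apart from all genes. The largest rise was that of Lmod2, which sets filament length, from 3.43 and 4.07 CPM to 55.5 and 53.3 CPM (log2 difference 3.95, SE 0.35, adjusted p = 4.02e-05). Its Day 7 UMIs were 47 in 7 cells of Day 7 A and 9 in 3 cells of Day 7 B. The skeletal actin Acta1 stood at 1850 and 2129 CPM at Day 2 and at 7470 and 5991 CPM at Day 7, without overlap (1.77, SE 0.57, adjusted p = 0.0665). The cardiac actin Actc1 stood at 7770 and 7312 and at 4459 and 5090 CPM, also without overlap (-0.66, SE 0.56, adjusted p = 0.515). In every Day 7 and Day 10 library with a sum, the CPM of Acta1 thus exceeded that of Actc1, whereas both Day 2 libraries had the reverse order, a description of 2 genes whose changes did not pass the test. Tpm3 fell by 1.11 (adjusted p = 0.0286), and Nrap rose by 2.24 (adjusted p = 0.014). Both calls were lost with DESeq2, and that for Tpm3 also without the deep cells under 1%.

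The Z-disc and assembly list had 9 of 25 genes higher and none lower at Day 7. Tcap, which caps titin at the Z-disc, rose from 56.8 and 46.9 to 282 and 148 CPM (log2 difference 2.2, SE 0.34, adjusted p = 0.00153) and read 320 CPM in Day 10 B. Pdlim3 rose from 61.9 and 51.2 to 175 and 184 CPM (1.68, SE 0.25, adjusted p = 0.00112), though its difference was -1.06 in shallow cells alone. Csrp3, a mechanosensor of the Z-disc, Xirp1, Ldb3, Myot, Trim54 and the atrophy ligase Fbxo32 rose by between 0.86 (Trim54) and 2.28 (Xirp1). The calls for Ldb3, Myot and Trim54 were lost without the deep cells under 1% and with DESeq2. Des, the muscle intermediate filament, read 816 and 788 CPM at Day 2 and 1387 and 1244 at Day 7 (0.73, SE 0.44, adjusted p = 0.337).

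Genes that couple the membrane to calcium release included 5 of 20 that rose and none that fell. Cacng1 rose from 126 and 137 to 440 and 385 CPM (log2 difference 1.68, SE 0.32, adjusted p = 0.0057). Cacna1s, the pore of the same voltage sensor, rose from 25.4 and 32.9 to 75.6 and 136 CPM (1.7, SE 0.27, adjusted p = 0.00179). Both lay without overlap above Day 2. The release channel Ryr1, which the sensor opens, gave 78.8 and 81.5 against 67.3 and 148 CPM (0.18, SE 0.28, adjusted p = 0.742). Jsrp1, Srl and the calcium store protein Casq1 rose by 1.76, 1.19 and 2.09, with Casq1 on 17 and 2 UMIs. The Srl call was lost without the deep cells under 1% and with DESeq2.

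The acetylcholine receptor list had 3 of 9 genes higher and the dystrophin complex list 4 of 14, with none lower in either. Chrng, the gamma subunit of the fetal receptor, rose from 99.3 and 112 to 192 and 415 CPM (log2 difference 1.41, SE 0.33, adjusted p = 0.0165), but its difference was -0.29 without the cells above the 90th percentile of UMIs and -2.33 in shallow cells alone. Chrne, the epsilon subunit that replaces it in adult muscle, had no UMI. Chrnd rose by 1.61 and Lrp4, the agrin receptor, by 2.49, on 16 and 4 UMIs. Dtna, which binds dystrophin, rose from 7.72 and 9.31 to 53.1 and 23.7 CPM (2.55, SE 0.37, adjusted p = 8.03e-04), and Sgca, Sgcb and Utrn rose by 1.19, 0.93 and 1.25. The calls for Sgcb and Utrn were lost without the deep cells under 1% and with DESeq2, and that for Sgca with DESeq2. Dystrophin itself (Dmd) read 36.9 and 39.6 against 51.9 and 107 CPM (0.8, SE 0.27, adjusted p = 0.0813).

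In the energy list 6 of 14 genes rose and none fell. Mb, the oxygen store of muscle, rose from 119 and 125 to 758 and 646 CPM (log2 difference 2.54, SE 0.38, adjusted p = 0.00111), and Day 10 B held 655 CPM. Cox6a2, a muscle subunit of cytochrome oxidase, rose from 68.6 and 64.3 to 436 and 94.8 CPM (2.22, adjusted p = 0.0108), and Eno3, the muscle enolase, from 265 and 214 to 796 and 480 CPM (1.47, adjusted p = 0.0346). Ckm, the muscle creatine kinase, rose by 2.84 (adjusted p = 0.00716) on 36 UMIs in Day 7 A and none in Day 7 B. Its brain-type partner Ckb read 738 and 722 against 916 and 1173 CPM (0.51, adjusted p = 0.483). Pygm and Pfkm, of glycogen breakdown and glycolysis, rose by 1.48 and 1.66. The Pygm call was lost without the deep cells under 1% and with DESeq2.

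The promoters of these genes were searched for the E-box CAGCTG, the sequence bound by the MyoD family, which reads the same on both strands. Among RefSeq promoter windows (GRCm38.p6) cut to the 250 bases before the start, 46 of 154 windows for the 9 muscle lists held it (29.9%, from 113 of the 164 genes with an entry), against 13% of all 32851 windows. Of the 41 genes that rose at Day 7, 25 had an entry, and 13 of their 37 windows held it (35.1%). Of the 25 genes with the largest ratios, 15 had an entry, and 9 of 19 windows held it (47.4%). The windows below belong to Cav3 and Mb, which rose, and to Chrna1, whose ratio to other cells was at least 980 in each library. Each is written 5′ to 3′ along the gene, with the E-box in capitals. They lie at chr6:112459255-112459504 on the plus strand for Cav3, at chr15:77022788-77023037 on the minus strand for Mb, inside the annotated extent of that gene and outside its exons, and at chr2:73580339-73580588 on the minus strand for Chrna1.
Cav3: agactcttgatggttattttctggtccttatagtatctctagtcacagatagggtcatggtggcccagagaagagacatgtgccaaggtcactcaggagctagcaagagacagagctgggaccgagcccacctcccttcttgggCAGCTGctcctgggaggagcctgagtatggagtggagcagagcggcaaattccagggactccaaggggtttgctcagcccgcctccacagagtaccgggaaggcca
Mb: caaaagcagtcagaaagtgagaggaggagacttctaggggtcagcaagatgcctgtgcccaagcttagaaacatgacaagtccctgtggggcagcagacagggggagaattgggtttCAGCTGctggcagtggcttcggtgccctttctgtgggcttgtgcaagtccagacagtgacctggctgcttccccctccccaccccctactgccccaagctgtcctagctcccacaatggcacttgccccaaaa
Chrna1: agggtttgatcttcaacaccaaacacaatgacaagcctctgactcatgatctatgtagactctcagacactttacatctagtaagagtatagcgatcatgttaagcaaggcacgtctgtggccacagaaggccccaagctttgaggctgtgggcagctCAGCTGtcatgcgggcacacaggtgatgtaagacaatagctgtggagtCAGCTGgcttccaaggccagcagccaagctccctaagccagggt
The E-box is found once in the first and second windows and 2 times in the third. Mb has 3 windows in the table, of which the one before the annotated gene start, at chr15:77050669-77050918, does not hold it, and the one shown was chosen because it does. These matches describe the letters and were not tested as binding sites.

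Cell cycle genes moved the other way. Of 15 genes, 9 fell at Day 7 and none rose, with a median log2 difference of -2.28. Over all genes tested 4.01% fell and 6.8% rose. The list summed to 536 and 461 CPM at Day 2 and to 106 and 225 CPM at Day 7 in muscle cells. The other cells went down as well, from 1890 and 1957 to 689 and 684 CPM, and the difference between the 2 falls was not tested. Top2a, which untangles replicated DNA, read 101 and 90.5 CPM at Day 2 and 11.8 and 41.5 CPM at Day 7 (-2.4, SE 0.37, adjusted p = 0.0013), and the other cells read 136 and 131 CPM at Day 7. Birc5 fell from 64 and 67.8 to 3.54 and 11.9 CPM (-3.64, adjusted p = 3.00e-04). The call for Mki67 (-1.62, adjusted p = 0.0386) turned to 0.44 when deep cells under 1% in the 6 genes were left out on every day. Without those cells none of 12 cell cycle genes was called by edgeR (4 at an unadjusted p under 0.05, of which 3 were lower, against 1921 of all 8777 genes tested) and the median was -0.78, and without Day 7 A 1 gene was called. Cdkn1c, a cyclin-dependent kinase inhibitor of muscle cell cycle exit, fell from 8225 and 8444 to 2360 and 1458 CPM (-2.09, SE 0.59, adjusted p = 0.04), and Rb1 fell by 1.05. Cdkn1a, another inhibitor of the same family, read 1409 and 1301 against 1563 and 1049 CPM (-0.02, adjusted p = 0.99). Among the largest falls of all genes was that of Nnat, an imprinted membrane protein gene, from 542 and 471 CPM to 1.18 and 0 CPM (-8.86, SE 0.67, adjusted p = 7.32e-06).

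Cartilage genes were among the largest rises between Day 2 and Day 7. All 10 chondrocyte genes were higher in the muscle cells of Day 7, with a median log2 difference of 4.95, and 6 of 8 perichondrium and fibroblast genes were higher, with a median of 3.84. Col2a1 went from 84.6 and 37.3 to 2746 and 1499 CPM (5.17, SE 0.67, adjusted p = 4.30e-04), and Snorc from 0.172 and 0 to 62.6 and 71.1 CPM (8.66, SE 0.64, adjusted p = 7.32e-06). The other cells of the same libraries moved as well, from a summed chondrocyte level of 2174 and 2404 CPM at Day 2 to 20678 and 19184 CPM at Day 7, against 293 and 164 and then 5756 and 3946 CPM in muscle cells. The depth ranges differed here, since the shallow muscle cells of Day 7 A and B summed to 11747 and 9109 CPM and the deep ones to 5083 and 887 CPM. In the deep cells of Day 7 A the list took from 0.038% to 2.22% of UMIs, and the cell with the most, of 87274 UMIs, held 916 of the Col2a1 UMIs. The part of the other cells' transcripts in these rises was not tested. Other large rises were of genes with higher levels in muscle cells than in other cells. C1ql3, of the C1q-like family of secreted proteins, rose from 0.343 and 0.582 to 31.9 and 88.9 CPM (6.56, SE 0.63, adjusted p = 6.50e-05) against 5.05 and 4.97 CPM in other cells of Day 7, with 20 of its 27 UMIs in Day 7 A and 13 of 15 in Day 7 B from 1 cell each. R3hdml rose from 1.89 and 1.46 to 51.9 and 154 CPM (5.46, SE 0.48, adjusted p = 3.53e-05) while other cells stayed at or under 0.112 CPM.

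From Day 7 to Day 10, 27 of the 8970 genes rose in muscle cells and 2 fell (0.323% of genes tested, 0.301% higher and 0.0223% lower), with a split of 25 to 15 by DESeq2. Both comparisons use the Day 7 libraries, and the Day 10 side was Day 10 B alone. None of the 137 muscle list genes was called by edgeR, while 46 had an unadjusted p under 0.05, each of them lower at Day 10. Over all 8970 genes tested, 919 had an unadjusted p under 0.05 in either direction. DESeq2 called 6 lower (Ckb, Klhl41, Myh3, Neb, Pgam2 and Rapsn, named after their values were seen). This count of 0 changed with the setting. With edgeR, muscle list genes were called lower without a filter on low counts, with the replicate letter as a block and in deep cells alone. Without Day 7 A or Day 7 B calls were made as well, mostly lower. Those 2 fits set Day 10 B against 1 library, with the spread taken from Day 2 alone. In all these settings more genes were also called lower over all genes. The list median was -0.8 without Day 7 A (all genes -0.000235) and -1.01 without Day 7 B (all genes -0.207). The median over the 137 was -0.92 on the log2 scale, against -0.11 over all genes, and 111 were negative. Neb stood at 725 and 640 CPM at Day 7 and at 126 CPM in Day 10 B (-2.64, SE 0.65, adjusted p = 0.161). Rapsn, which clusters acetylcholine receptors, stood at 179 and 249 and at 36.7 CPM (-2.68, SE 0.57, adjusted p = 0.087). Cav3, Mb and Tcap, which had risen by Day 7, gave 0.15, -0.31 and 0.24 (adjusted p = 0.947, 0.853 and 0.885).

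The Day 10 values rested on few cells. Without the 3 deep cells of Day 10 B under 1% (and such cells of the other days), edgeR called no gene (528 at an unadjusted p under 0.05), and the muscle lists had a median of -0.26, equal to that of all genes. Of the 27 genes that rose, 22 had over 90% of their Day 10 B UMIs in those 3 cells (median 96.3%, lowest 70.5%). Snorc had 245 of 248 UMIs there, Spp1 260 of 268, Krt18, a keratin of simple epithelia, 26 of 27, and Smoc2 all 27. The rises of Krt18 (5.86, SE 0.77, adjusted p = 0.00785), Spp1 (4.17, adjusted p = 0.04) and Snorc (4.09, adjusted p = 4.72e-04) were thus mostly values of these 3 cells, not of all 15. The 2 genes that fell were Sct, which encodes secretin, from 505 and 190 CPM to 5.24 CPM (-6.34, SE 1.18, adjusted p = 0.04), and Gm19866, from 98 and 88.9 to 5.24 CPM (-4.42, SE 0.82, adjusted p = 0.04). Of the 428 Sct UMIs in Day 7 A, 175 lay in the single cell of 41840 UMIs.

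The change from Day 7 to Day 10 was also set against that of the other cells of the same libraries, in a fit over 17461 genes with edgeR's quasi-likelihood test and Benjamini-Hochberg adjustment. The filter on low counts saw the sums of both cell classes, so genes with few or no muscle cell UMIs were tested too. The fit by day on muscle cells alone held 8970 genes, 137 of them from the muscle lists. Shares of genes called are therefore over a wider set here. It differed for 13 genes (0.0745% of genes tested), 8 higher in muscle cells (0.0458%) and 5 lower (0.0286%). Of 157 genes of the muscle lists tested, 1 was called, Rapsn, which stood at 179, 249 and 36.7 CPM in muscle cells and at 0.258, 0.293 and 0.43 in other cells (difference of the log2 changes -3.34, SE 0.78, adjusted p = 0.0295). The Rapsn call was lost with DESeq2, which called Ckb instead, and in shallow cells alone, where Mef2c was called. It was also lost with edgeR at 16 UMIs and 1%, without cells above the 90th percentile of UMIs and without deep cells under 1%, where no muscle list gene was called (16, 19 and 22 at an unadjusted p under 0.05). Prr32 stood at 92.1 and 160 CPM at Day 7 and at 21 CPM in Day 10 B (-3.93, SE 0.93, adjusted p = 0.0351).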

How the data were processed

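Single-cell RNA libraries of 2 independent DID cultures at each of Day 2, Day 7 and Day 10 were analysed (6 libraries, 69311 cells after filtering). Per the labels and the submitters' processing notes, the authors made the deposited counts with Cell Ranger 6.1.2 and STAR against GRCm38 (mm10), followed by Seurat 4.1.0. The deposited matrices hold whole UMI counts per gene and barcode, not normalized. Reads of genes that share sequence or overlap could not be told apart.

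Cells with at least 1000 UMIs, at most 7500 genes and at most 25% mitochondrial UMIs were kept. Muscle cells had at least 8 UMIs and 0.5% of UMIs in the 6 genes. Muscle cells, gene lists and thresholds were chosen with earlier results of these data known. Named genes are the members of the gene lists, the 25 genes outside the 6 with the largest lowest-library ratio among those of at least 100 CPM, and the 10 largest called changes per direction with no overlap between days and a mean of at least 50 CPM. UMIs of muscle cells were summed per library, and CPM were computed from these sums, which totalled 847073 in Day 7 A, 168759 in Day 7 B and 190788 in Day 10 B. A library needed 10 muscle cells to enter a fit. In fits on deep cells alone it needed 2, and in fits on shallow cells alone 8.

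Days were compared with edgeR 4.0.16 (R 4.3.3, quasi-likelihood test, TMM, filterByExpr, Benjamini-Hochberg adjustment, threshold 0.05), fitted over all genes but the 6, which stayed in the totals. The spread was estimated with 2 residual degrees of freedom. Each SE printed with a log2 difference is the size of that difference divided by the square root of the test's F statistic. It holds no information beyond the test. The change from Day 7 to Day 10 in muscle cells was compared with that in other cells by an interaction term. DESeq2 1.42.0 was an alternative. Shares were given exact 95% binomial intervals and a two-sided exact permutation test (SciPy 1.17.1). The permutation p-values compare cultures. The p-values of the day fit rest on the spread between cultures at Day 2 and Day 7, as Day 10 gave 1 library. Cell sampling is part of that spread, since 2 cells held 62.8% of the Day 7 B sum. In the interaction fit, with 1 residual degree of freedom, the spread was shared over genes and no gene kept its own. The alternatives with members split at 3000 UMIs, or without deep members under 1%, were chosen after seeing the data. Scripts were tested on simulated counts. Gene positions came from GENCODE vM21 and promoter windows from RefSeq (GRCm38.p6). No columns of other samples were present, and no doublet caller was run. Some genes of the lists are counted but not reported here by name.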

Additional observations from a re-analysis of the deposited data

Results flagged for a closer look

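The change from Day 7 to Day 10 differed between muscle cells and other cells for 13 of 17461 genes by edgeR's interaction test with Benjamini-Hochberg adjustment (0.0745% of genes, with 8 higher, 0.0458%, and 5 lower, 0.0286%). DESeq2 gave a split of 9 to 1, and the median over all genes was -0.15 with edgeR and 0.198 with DESeq2. The fit had 1 residual degree of freedom and Day 10 B as its single Day 10 library. The genes tested included many with few or no muscle cell UMIs.

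The change was higher in the muscle cell sums than in other cells for Krt18 (log2 difference of the changes 5.75), Epyc (4.96), Cenpa (4.71), Adamts1 (3.85), Itm2a (3.13) and Ptx3 (3.03). Other cells went down in Epyc, from 144 and 138 to 39.4 CPM, and in Adamts1 and Itm2a. The 3 deep cells of Day 10 B under 1% held 26 of its 27 Krt18 UMIs, all 23 of Cenpa, 50 of 53 of Itm2a and 72 of 74 of Ptx3. The change was lower in muscle cells than in other cells for Il17b (-6.28), Sct (-5.6), Prr32 (-3.93) and Rapsn (-3.34), the scaffold of acetylcholine receptors. Car3, a carbonic anhydrase of muscle, gave a fitted -16.79, with 103 and 11.9 CPM in the muscle cells of Day 7 and no UMI in Day 10 B, so this value is no bound on the change. All 87 Car3 UMIs of Day 7 A lay in 1 cell. Without the deep cells under 1% in the 6 genes, 1 gene was called (408 at an unadjusted p under 0.05).

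Barcodes outside the quality limits also met the muscle thresholds at Day 7 and Day 10. They were 10 barcodes over 7500 genes, 5 over 25% mitochondrial UMIs and 7 under 1000 UMIs. Day 10 A, with 1 muscle cell inside the limits, held 3 of those over 7500 genes and 1 of those over 25% mitochondrial UMIs.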

How the results depend on the processing

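The late libraries held 1, 15, 47 and 73 muscle cells, which limits the precision, and Day 10 rests on Day 10 B in the fits. The direction of both share differences held under the settings run, except that from Day 2 to Day 7 among cells under 3000 UMIs (0.28 percentage points), but Day 10 against Day 7 shrank to -0.0951 at 16 UMIs and 1% and to -0.0703 in deep cells; without 1 library they ranged from -0.452 to -0.292 (Day 10 against Day 7) and from -1.97 to -0.493 (Day 7 against Day 2). The causes of the changes below were not tested. Fits without 1 Day 7 library compared Day 10 B with 1 library, and fits without 1 Day 2 library kept 1 at Day 2.

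Genes called between Day 10 and Day 7 numbered 133 without a filter on low counts, 0 at 16 UMIs and 1% (464 at an unadjusted p under 0.05), 2 at 4 UMIs and 0.25%, 19 without cells above the 90th percentile of UMIs, 63 in deep and 8 in shallow cells, 0 without deep cells under 1%, and 37 to 497 without 1 library (497 without Day 7 A, 209 without Day 7 B). Between Day 7 and Day 2 they numbered 296 with DESeq2, 437 at 16 UMIs and 1%, 80 in shallow cells and 179 to 1451 without 1 library (179 without Day 2 A, 184 without Day 2 B). Interaction calls numbered 1 at 16 UMIs and 1%, 8 at 4 UMIs and 0.25%, and 1 each without cells above the 90th percentile, in shallow cells and without deep cells under 1%. Genes higher than in other cells numbered 226 without cells above the 90th percentile, 263 at a ratio of 4, 39 in shallow cells and 511 to 749 without 1 library (749 without Day 10 B), and genes lower 87, 10, 13 and 222 to 565 (565 without Day 10 B, 296 without Day 7 B), with 289 at 16 UMIs and 1%. Muscle list genes higher at Day 7 numbered 19 with DESeq2, 23 at 16 UMIs and 1%, 24 without cells above the 90th percentile, 5 in shallow cells, 26 without deep cells under 1% and 3 to 59 without 1 library. Muscle list genes lower at Day 10 numbered 0 with edgeR as reported, and 3 to 33 without 1 library. Cell cycle genes lower numbered 9 of 15 tested as reported, 3 of 15 with DESeq2 and 0 of 10 at 16 UMIs and 1%. Counts were 1 of 8 without cells above the 90th percentile and 0 of 2 in shallow cells. Without deep cells under 1% it was 0 of 12. So few genes cannot show whether the fall was lost. Without 1 library the list median ran from -2.46 to -1.36. In the same settings 137, 133, 123, 62 and 134 muscle list genes were tested. Over all genes 233 of 8970, 304 of 8102, 507 of 6289, 55 of 1560 and 451 of 8777 were higher.

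Some named genes turned. At 16 UMIs and 1%, Day 10 against Day 7 gave Hapln1 -0.92, Myl9 -0.71, Ptx3 -0.41, Smoc2 -6.71 and Snorc -0.63, and the interaction gave Cenpa -0.27, Epyc -11.06 and Ptx3 -0.82. Without cells above the 90th percentile, Day 10 gave Ifitm3 -1.2, Myl9 -0.95, Ptx3 -0.11 and Spp1 -1.09, Day 7 against Day 2 gave Chrng -0.29 and Mki67 0.11, and the interaction Ptx3 -0.5. Shallow cells gave Hapln1 -1.97, Myl9 -0.53, Snorc -0.47 and Spp1 -0.82 at Day 10, Chrng -2.33, Mki67 1.04, Pdlim3 -1.06 and Tagln 0.15 at Day 7, and Cenpa -8.8, Epyc -6.53, Itm2a -0.63 and Ptx3 -1.25 in the interaction. Deep cells gave Sox9 -0.19 at Day 7. Without deep cells under 1%, Day 10 gave Cenpa -5.36, Hapln1 -1.6, Myl9 -0.87, Ptx3 -0.79, Smoc2 -7.27 and Snorc -1.19, Day 7 gave Mki67 0.44, and the interaction Cenpa -11.95, Epyc -11.17 and Ptx3 -1.15.

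Replicate letters paired nothing in the design. Over 1262 genes with a mean log2 CPM over that of 100 CPM, the A minus B differences of Day 2 and Day 7 correlated at 0.194. With the letter as a replicate block, 102 genes were called between Day 10 and Day 7 and 770 between Day 7 and Day 2. The interaction could not be fitted without a library, and Day 10 against Day 7 could not be fitted without Day 10 B.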
